A study of Mus musculus with 12 samples.

Results

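The dystrophin-glycoprotein complex was followed here through 7 of its genes, Dmd, Utrn, Dag1, Sgca, Sgcb, Sgcd and Dtna, chosen by gene symbol alone from the 13552 genes measured. All 7 were found, and all 7 passed the filter on low values (at least 1 RPKM in at least 3 hearts, where RPKM is a read count divided by exon length and by library size), as did 11240 genes in all. RNA was sequenced from whole hearts of 12 male mice, 3 in each of 4 groups, taken 9 h after surgery at an age of 8 to 10 weeks. Transverse aortic constriction (TAC) narrows the aorta and loads the left ventricle, and sham mice had the surgery without the constriction. Wild type (WT) sham and WT TAC mice were purchased C57BL/6J animals. KI sham and KI TAC mice were homozygous for Bcl-xL S14A, a knock-in in which alanine takes the place of a serine that can be phosphorylated, carried by every cell of the body, and were bred on the same background from animals whose selection cassette had been removed by a cross with CMV-Cre mice. The source of the animals therefore differed together with the genotype, and their contributions to a KI against WT difference cannot be told apart. The changed codon does not alter how much of the transcript is counted, so the level of the targeted gene is no check of the genotype labels.

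The complex ties the actin cytoskeleton of a muscle cell to the basement membrane and protects the cell membrane when the cell contracts. Dystrophin (Dmd) is its cytoplasmic anchor, and utrophin (Utrn) is a related protein encoded on an autosome. Dystroglycan (Dag1) is cut into an outer part, whose sugar chains bind laminin, and a membrane part that binds dystrophin. The sarcoglycans (Sgca, Sgcb and Sgcd among them) form a separate membrane subcomplex, and α-dystrobrevin (Dtna) joins dystrophin to the syntrophins. Loss of dystrophin or of a sarcoglycan causes muscular dystrophy, often with disease of the heart muscle.

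In brief, a single member, Sgca, passed the test for TAC, with less RNA in both genotypes (log2 change -0.88 in WT and -0.79 in KI hearts). The other 6 members did not pass the test in any comparison of all 12 hearts. Of these, Dmd, Utrn, Sgcd and Dag1 varied from heart to heart with the level of long transcripts in general, Dag1 least closely over all 12 hearts but not in every subset of them.

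The libraries held 23648825 to 32449480 reads on genes, a depth read back from the table because low RPKM values are whole multiples of the value of 1 read (94.0% to 97.3% of them within 0.1 read). The 3 KI TAC libraries (30299062 to 31677872 reads) were all deeper than the 3 WT TAC libraries (25715664 to 29607862). Across all genes, 1299 passed an adjusted p of 0.05 in WT TAC against WT sham hearts, 2620 in KI TAC against KI sham hearts and 1242 in KI TAC against WT TAC hearts, of which 60.2%, 36.8% and 26.4% were higher. With 1 mouse left out these counts fell as low as 596 (without WT TAC mouse 7), 1453 (without KI sham mouse 3) and 162 (without WT TAC mouse 7, and 186 without KI TAC mouse 6). Median-ratio scaling moved these shares to 50.2%, 55.0% and 58.6%, and the median log2 change of all genes from 0.04, -0.10 and -0.12 to 0.00, 0.03 and 0.03. All 7 cardiomyocyte markers examined were present, and of 8 markers of skeletal muscle only Myl1 was in the table, at 1.36 to 9.58 RPKM. Of 4 adipocyte markers, 0 were among the genes measured.

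The members lie on 6 chromosomes of the GRCm38 mouse genome. Dmd spans chrX:82948870-85206141 on the plus strand, and the exons of its 14 annotated transcripts cover 23801 bases. Utrn spans chr10:12382188-12869365 on the minus strand with 17108 bases of exon, and Dtna chr18:23415135-23659715 on the plus strand with 16930 bases. Sgcd (chr11:46896253-47988969), Dag1 (chr9:108204634-108263958), Sgcb (chr5:73632749-73647790) and Sgca (chr11:94962791-94976327) all lie on the minus strand, with 8257, 6357, 4052 and 1735 bases of exon. Sgca is thus the shortest member and Dmd the longest. Values are per gene, so the full-length and short forms of Dmd or the splice forms of Dtna are counted together.

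In WT sham hearts Dag1 stood highest at 186 ± 7.24 RPKM (SD, n = 3), followed by Sgca at 94.3 ± 8.47 and Sgcb at 41.0 ± 4.17 RPKM. The ranges of these genes over the 3 hearts did not overlap. The other members were far lower. Utrn reached 6.00 ± 1.36 RPKM, above the other 3 in each of the 3 hearts. Sgcd (3.60 ± 1.53), Dmd (3.02 ± 1.25) and Dtna (2.85 ± 0.262 RPKM) overlapped in range. The fewest reads behind any of these values were 396, for Sgcd in KI sham mouse 2, so that counting error was small beside the spread between mice. Dmd rested on 1212 to 4739 reads in a heart and Utrn on 2303 to 4001.

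**Figure D1:**
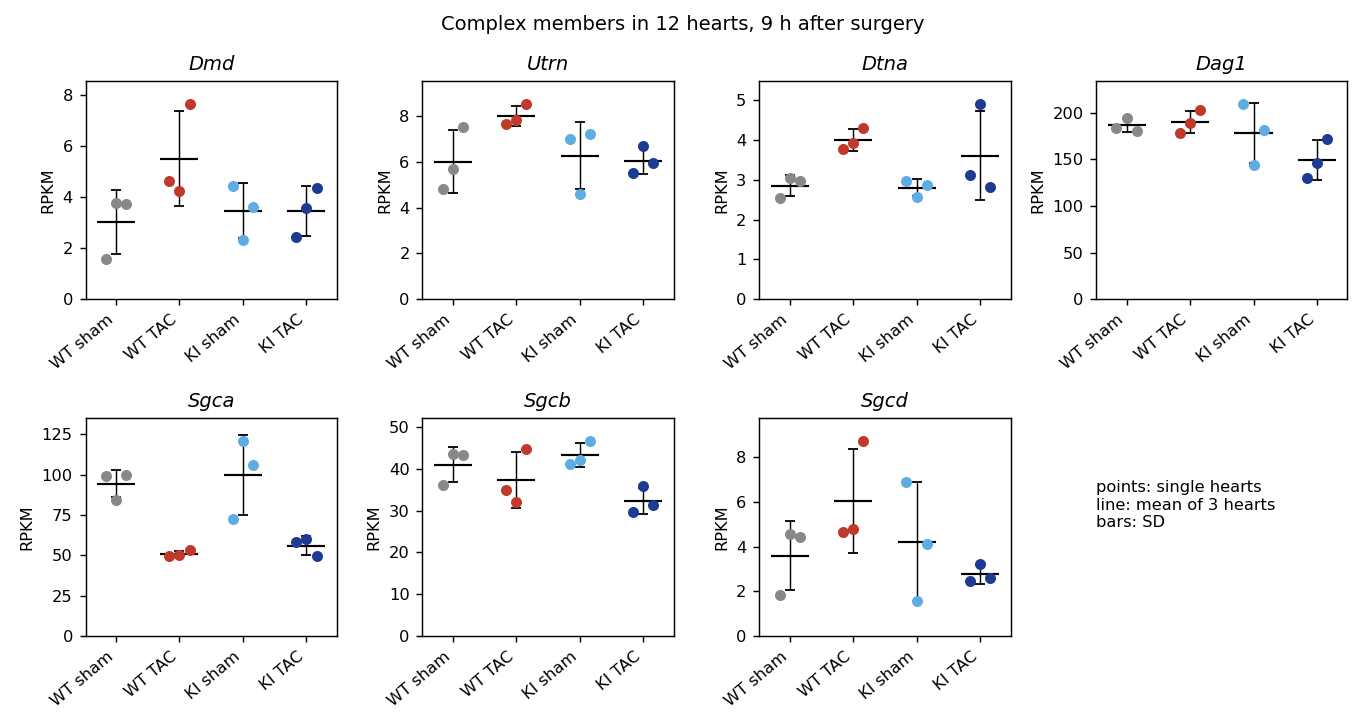
RPKM of the 7 members in each of the 12 hearts (points), with the mean of 3 hearts (line) and SD (bars) for each group, on vertical axes that start at 0. The 6 TAC hearts lie between 49.3 and 60.4 RPKM for Sgca, all below the 6 sham hearts (72.3 to 121 RPKM).

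Sgca encodes α-sarcoglycan, a sarcoglycan made almost only in striated muscle. In WT sham mice 1, 2 and 3 it measured 98.8, 84.5 and 99.5 RPKM, and in WT TAC mice 7, 9 and 10 it measured 49.3, 49.9 and 53.3 RPKM. In KI sham mice 1, 2 and 3 it measured 72.3, 121 and 106 RPKM, and in KI TAC mice 5, 6 and 7 it measured 58.0, 60.4 and 49.6 RPKM. Each TAC heart was below each sham heart, and the KI sham hearts were spread more widely than those of the other groups. With limma on log2(RPKM + 1), Sgca fell by 0.88 in WT hearts (SE 0.20, 95% interval -1.31 to -0.45, adjusted p = 0.0131), to 0.545 of its sham level on that scale. In KI hearts it fell by 0.79 (SE 0.20, 95% interval -1.22 to -0.36, adjusted p = 0.0121), to 0.577 of the sham level. It was 1 of 7 members lower in each of the 2 comparisons, where 4.60% of all genes tested were lower in WT hearts and 14.7% in KI hearts. No member was higher, against 6.96% of all genes in WT and 8.57% in KI hearts.

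The fall of Sgca did not differ detectably between the genotypes. The interaction of genotype and surgery was 0.08 on the log2 scale (SE 0.28, 95% interval -0.53 to 0.69, adjusted p = 0.904). KI TAC against WT TAC hearts gave 0.13 (95% interval -0.30 to 0.56, adjusted p = 0.685). The call in WT hearts was lost without WT sham mouse 3 (-0.84, adjusted p = 0.0564) or without WT TAC mouse 7 (-0.85, adjusted p = 0.0564), and that in KI hearts without KI sham mouse 3 (-0.73, adjusted p = 0.0592). The direction stayed the same when any single mouse was left out. After median-ratio scaling, which takes the median gene as unchanged, the log2 change was -0.92 in WT hearts (adjusted p = 0.0157) and -0.63 in KI hearts (adjusted p = 0.0470).

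Sgca belongs to the striated muscle cells of the heart, so the markers of these cells were set beside it. In WT hearts 2 of 7 cardiomyocyte markers fell, the heart myosin Myh6 (log2 change -1.15, adjusted p = 0.0129) and the calcium pump Atp2a2 (-0.83, adjusted p = 0.0142). The changes of 6 of the 7 were below 0 in WT hearts (median -0.76), among them the troponin Tnni3 (-0.84, adjusted p = 0.0579) and the myosin light chain Myl2 (-0.76, adjusted p = 0.0670), which missed the threshold although their WT groups did not overlap. Tnni3 was at 460 to 770 RPKM in WT sham and 286 to 335 RPKM in WT TAC hearts, and Myl2 at 1890 to 2598 and 1150 to 1385 RPKM. In KI hearts 0 of 7 passed the test, and the median was 0.05. The summed level of the 7 markers was 17688 to 23544 RPKM in WT sham, 14585 to 24540 in WT TAC, 19264 to 22148 in KI sham and 17596 to 24123 in KI TAC hearts, and its groups overlapped. Cardiac actin (Actc1, 0.42 in WT hearts, adjusted p = 0.359) alone gave 8113 to 19135 RPKM of the sum in WT hearts and was the 1 marker of the 7 with a change above 0 there. The 2 neutrophil markers S100a8 and S100a9 summed to at most 0.791 RPKM in any sham heart and to at least 2.48 RPKM in every TAC heart. Of the leukocyte markers, 3 of 3 tested rose in WT hearts and 1 of 3 in KI hearts, and their sum was 48.6 to 91.4 RPKM in WT sham, 112 to 159 in WT TAC, 54.7 to 75.1 in KI sham and 64.8 to 92.5 in KI TAC hearts. The 4 smooth muscle markers summed to 35.5 to 44.8 RPKM in WT sham and 54.0 to 129 RPKM in WT TAC hearts, with 1 of 4 risen, and overlapped between KI sham and KI TAC hearts. Sums of the 5 endothelial and 5 fibroblast markers overlapped between sham and TAC hearts of both genotypes, with 1 fibroblast marker, Lum, lower in KI hearts. The skeletal muscle marker Myl1 (0.96 in WT hearts, adjusted p = 0.0933) and the Schwann cell marker Sox10 (0.40, adjusted p = 0.221) did not pass the test, although each was higher in all 3 WT TAC than in all 3 WT sham hearts. In KI hearts their changes were 0.59 for Myl1 (adjusted p = 0.239) and -0.53 for Sox10 (adjusted p = 0.0770). The part of these differences in the level of Sgca was not tested, and in whole hearts fewer cells of a type and less RNA per cell cannot be told apart.

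The promoters of Sgca and of its partner Sgcb are shown because the first gene fell and the second did not pass the test. They are RefSeq windows of the GRCm38.p6 build, 250 bases before to 50 bases after the transcript start, written 5′ to 3′ on the minus strand of each chromosome (chr11:94976278-94976577 for Sgca and chr5:73647688-73647987 for Sgcb). Capitals mark E-boxes, CANNTG, the sequence read by the muscle regulatory factors and many other helix-loop-helix proteins.
Sgca: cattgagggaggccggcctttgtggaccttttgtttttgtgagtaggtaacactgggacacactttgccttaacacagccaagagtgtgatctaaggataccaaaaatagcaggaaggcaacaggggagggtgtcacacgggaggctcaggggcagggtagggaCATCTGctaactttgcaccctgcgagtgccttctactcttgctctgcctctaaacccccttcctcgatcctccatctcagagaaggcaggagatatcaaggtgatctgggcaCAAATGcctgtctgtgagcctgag
Sgcb: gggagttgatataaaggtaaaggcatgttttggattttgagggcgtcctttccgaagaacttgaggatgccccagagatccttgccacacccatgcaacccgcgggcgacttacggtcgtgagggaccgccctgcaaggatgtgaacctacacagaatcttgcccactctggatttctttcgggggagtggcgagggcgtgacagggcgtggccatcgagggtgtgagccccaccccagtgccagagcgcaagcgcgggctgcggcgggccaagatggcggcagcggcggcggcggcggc
Both strands were searched for the E-box, for the TATA box (spelled TATAAA), for the GC box (spelled GGGCGG) and for MCAT, a motif of many cardiac genes (spelled CATTCC). The Sgca window holds 2 E-boxes and no match to the others. The Sgcb window holds 1 GC box and 1 match to TATAAA, and no match to the others. The TATAAA lies near the 5′ end of the window, far from the transcript start. An E-box was present in 72.3% of all 32851 promoter windows of this length, the TATA box in 13.6%, the GC box in 35.7% and MCAT in 14.7%. These matches describe the sequence only.

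Sgcb, the β-sarcoglycan that is the core of the sarcoglycan subcomplex, measured 36.2, 43.6 and 43.3 RPKM in WT sham mice 1, 2 and 3 and 35.0, 32.0 and 44.8 RPKM in WT TAC mice 7, 9 and 10. The KI sham mice 1, 2 and 3 were at 41.1, 42.2 and 46.6 RPKM, and KI TAC mice 5, 6 and 7 at 29.7, 35.8 and 31.4 RPKM. The WT groups overlapped, whereas each KI TAC heart was below each KI sham heart. The fitted changes were -0.14 in WT hearts (SE 0.18, 95% interval -0.52 to 0.24, adjusted p = 0.634) and -0.41 in KI hearts (SE 0.18, 95% interval -0.79 to -0.03, adjusted p = 0.106). Neither passed the test. The ratio of Sgca to Sgcb within a heart, examined after the values had been seen and so given without a test, was 2.32 ± 0.395 in WT sham, 1.38 ± 0.186 in WT TAC, 2.30 ± 0.549 in KI sham and 1.74 ± 0.193 in KI TAC hearts (SD, n = 3). The ratio is free of the scaling between libraries. It need not be free of differences between hearts that go with exon length (1735 bases for Sgca, 4052 for Sgcb). Its highest values were 2.86 in KI sham mouse 2 and 2.73 in WT sham mouse 1, the hearts lowest in long transcripts, as described below. The WT groups did not overlap in this ratio (lowest sham 1.94, highest TAC 1.56), while the KI groups did (lowest sham 1.76, highest TAC 1.95).

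Sgce, the ε-sarcoglycan that replaces the α form outside striated muscle, stayed near 1 RPKM with a change of -0.03 in WT (adjusted p = 0.931) and -0.14 in KI hearts (adjusted p = 0.547). Of Sgca, Sgcb, Sgcd and Sgce, only Sgca was therefore past the threshold.

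Sgcd encodes δ-sarcoglycan, which pairs with the β form. In WT sham mice 1, 2 and 3 it measured 1.83, 4.55 and 4.41 RPKM, and in WT TAC mice 7, 9 and 10 it measured 4.64, 4.76 and 8.71 RPKM. In KI sham mice 1, 2 and 3 it measured 6.90, 1.59 and 4.12 RPKM, and in KI TAC mice 5, 6 and 7 it measured 2.44, 3.23 and 2.60 RPKM. Each WT TAC heart was above each WT sham heart, if narrowly (4.64 against 4.55 RPKM). The KI sham hearts alone spanned most of the range of the gene. The fitted changes were 0.63 in WT hearts (SE 0.36, adjusted p = 0.270) and -0.33 in KI hearts (SE 0.36, adjusted p = 0.532), neither past the threshold. Between the TAC groups each KI heart was below each WT heart, with a log2 change of -0.86 (SE 0.36, 95% interval -1.63 to -0.09, adjusted p = 0.125).

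Dmd measured 1.58, 3.76 and 3.73 RPKM in WT sham mice 1, 2 and 3 and 4.64, 4.23 and 7.62 RPKM in WT TAC mice 7, 9 and 10. Values of 4.45, 2.34 and 3.63 RPKM were found in KI sham mice 1, 2 and 3, and of 2.44, 3.57 and 4.37 RPKM in KI TAC mice 5, 6 and 7. All 3 WT TAC hearts exceeded the WT sham hearts, but the lowest sham heart and the highest TAC heart stood far from the others of their groups. The log2 change in WT hearts, 0.71 (SE 0.28, 95% interval 0.12 to 1.30), had an adjusted p of 0.113 and so missed the threshold. In KI hearts the change was 0.00 (SE 0.28, 95% interval -0.59 to 0.60, adjusted p = 0.997).

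Utrn measured 4.82, 5.69 and 7.49 RPKM in WT sham mice 1, 2 and 3 and 7.65, 7.82 and 8.49 RPKM in WT TAC mice 7, 9 and 10. In KI sham mice 1, 2 and 3 it was at 7.00, 4.57 and 7.21 RPKM, and in KI TAC mice 5, 6 and 7 at 5.49, 6.68 and 5.95 RPKM. Each WT TAC heart was above each WT sham heart, the closest being 7.65 and 7.49 RPKM. The KI TAC hearts lay within the range of the KI sham hearts and below all WT TAC hearts. Its log2 changes were 0.38 in WT hearts (SE 0.19, adjusted p = 0.207), -0.03 in KI hearts (adjusted p = 0.936) and -0.35 in KI TAC against WT TAC hearts (adjusted p = 0.218).

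The ratio of Utrn to Dmd asks whether the related protein's RNA takes a larger place in a loaded heart. It was 2.19 ± 0.779 in WT sham, 1.54 ± 0.380 in WT TAC, 1.84 ± 0.228 in KI sham and 1.83 ± 0.446 in KI TAC hearts (SD, n = 3). By an exact two-sided permutation test of the log2 ratio, whose smallest possible p with 3 against 3 hearts is 0.1, the effect of TAC had a p of 0.4 in WT and 0.8 in KI hearts, and the effect of genotype one of 0.4 after TAC and 0.7 after sham surgery. No difference in the ratio was detectable with 3 hearts in a group.

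Dtna measured 2.55, 3.03 and 2.97 RPKM in WT sham mice 1, 2 and 3 and 3.76, 3.92 and 4.28 RPKM in WT TAC mice 7, 9 and 10. In KI sham mice 1, 2 and 3 it was at 2.97, 2.56 and 2.87 RPKM, and in KI TAC mice 5, 6 and 7 at 3.11, 4.88 and 2.81 RPKM. The WT groups were apart, with little spread inside either, and the KI TAC group was drawn up by mouse 6. Fitted with a spread shared by all 4 groups, the WT change of 0.38 (SE 0.17, 95% interval 0.02 to 0.73) had an adjusted p of 0.156 and the KI change of 0.25 (SE 0.17) one of 0.290. Dtnb, the β-dystrobrevin found mainly outside muscle, was at most 0.506 RPKM in any heart and was not tested.

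Dag1, the most abundant member, measured 184, 195 and 181 RPKM in WT sham mice 1, 2 and 3 and 178, 189 and 202 RPKM in WT TAC mice 7, 9 and 10. It reached 209, 144 and 181 RPKM in KI sham mice 1, 2 and 3 and 130, 146 and 172 RPKM in KI TAC mice 5, 6 and 7. The WT groups overlapped almost fully, and the KI TAC hearts lay below the WT TAC hearts. The log2 change was 0.03 in WT hearts (SE 0.19, 95% interval -0.38 to 0.43, adjusted p = 0.946), -0.25 in KI hearts (SE 0.19, adjusted p = 0.372) and -0.35 between the TAC groups (SE 0.19, adjusted p = 0.225).

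**Figure D2:**
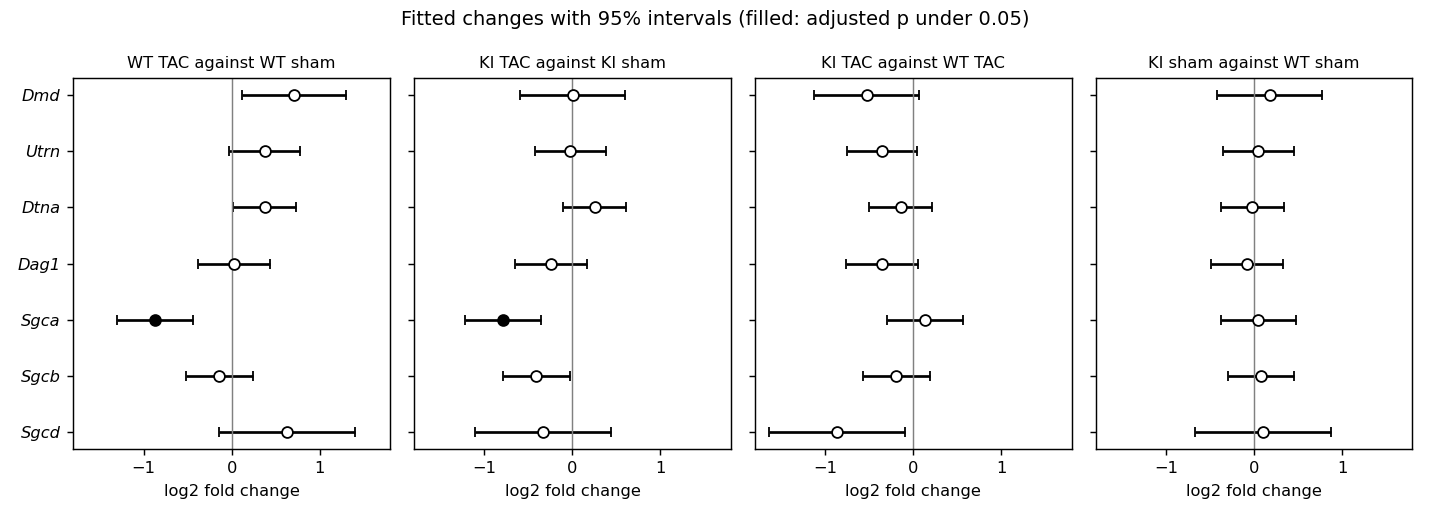
Log2 fold change of each member in 4 comparisons (points) with the 95% interval from limma (bars), filled where the adjusted p over all genes was under 0.05. Sgca is filled at -0.88 in WT and -0.79 in KI hearts, and no other point is filled.

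In the fit to all 12 hearts no member passed the test for the knock-in, with or without load. Sgcd was called in KI TAC against WT TAC hearts in 1 of 18 settings, the fit without 2 sham hearts described below. In KI TAC against WT TAC hearts limma called 0 of 7 members, where 2.92% of all genes were higher and 8.13% lower, and limma-voom on the recovered reads also called 0. At an unadjusted p under 0.05 the only member was Sgcd. The log2 changes ran from -0.86 to 0.13 with a median of -0.35, against a median of -0.12 over all genes tested. In KI sham against WT sham hearts 0 of 7 members were called (0 at an unadjusted p, 0 by limma-voom), as were 0.0178% of all genes, and the changes ran from -0.08 to 0.18. The interaction likewise gave 0 of 7 members (0 at an unadjusted p, 0 by limma-voom) and 0.00% of all genes, with changes from -0.96 for Sgcd to 0.08 for Sgca. Over all genes the interaction called 240 when WT TAC mouse 9 was left out, 182 when this was KI TAC mouse 7, and 8 when it was WT TAC mouse 10.

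Several members varied together from heart to heart. Over the 12 hearts Pearson's r of log2(RPKM + 1) was 0.87 between Dmd and Sgcd, 0.86 between Utrn and Sgcd and 0.84 between Dmd and Utrn. Sgca and Sgcb had an r of 0.64, and Sgca and Dtna one of -0.66. These values describe libraries that share their groups and their depth, and carry no test.

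The genes closest to a member over the 12 hearts were also examined. Those nearest to Dmd were Atp2b1, Vcpip1 and Ltn1 (r 0.96 to 0.97), to Utrn Tulp4, Gapvd1 and Prickle2 (0.92 to 0.96) and to Sgcd Usf3, Med14 and Map3k2 (0.96 to 0.97). Their annotated exons cover 7844 to 18054 bases. Those nearest to Sgca were Fdft1, an enzyme of sterol synthesis, with an r of 0.98, Tmem116 and Ecsit, a factor in the assembly of mitochondrial complex I (both 0.97), with 2490 to 4227 bases. Dag1 was nearest to Dstyk, Rasgrf2 and Proser1 (0.95 to 0.97, with 6114 to 9345 bases), Sgcb to Scrn3, Rfc1 and Kif16b (0.95 to 0.96, with 4815 to 9066 bases) and Dtna to Cab39l, Dennd5a and Ogfrl1 (0.86 to 0.90, with 6841 to 8677 bases). These ranges overlap that of the neighbours of Dmd, Utrn and Sgcd, and those of Sgca lie below it.

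Dtna, with 16930 bases of exon, varied less closely with Dmd, Utrn and Sgcd (r 0.50 to 0.64) than these did among themselves. Because Dmd, Utrn and Sgcd, which varied together most closely, have more bases of exon than Sgca and Sgcb, a long-transcript index was computed for each heart after the values had been seen. It is the median log2(RPKM + 1), relative to all hearts, of the tenth of genes with the longest exons (1123 genes of at least 9629 bases) minus that of the tenth with the shortest (1127 genes of at most 1582 bases), with the members left out. It was -0.40, 0.06 and 0.18 in WT sham mice 1, 2 and 3 and 0.20, 0.30 and 0.28 in WT TAC mice 7, 9 and 10. It was 0.29, -0.52 and 0.06 in KI sham mice 1, 2 and 3 and -0.09, -0.20 and -0.24 in KI TAC mice 5, 6 and 7. WT sham mouse 1 and KI sham mouse 2 stood apart from the other hearts, and all KI TAC hearts were below all WT TAC hearts. WT sham mouse 1 also had the lowest share of reads on mitochondrial genes, 6.36% against 9.76% to 12.5% in the other 11 hearts, and its part in these values was not tested.

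The permutation p values that follow treat the 12 hearts as exchangeable, although they fall in 4 groups. They also concern an index built after members had been seen to vary together. Of 7 relations with the long-transcript index, that of Sgcd had a Pearson's r of 0.92 (permutation p = 3e-05) and a Spearman's rho of 0.94 (permutation p = 3e-05) over the 12 hearts. Utrn had an r of 0.88 (permutation p = 0.00029) and a rho of 0.83 (permutation p = 0.0012). Dmd had an r of 0.74 (permutation p = 0.00407) and a rho of 0.75 (permutation p = 0.00721). Without WT sham mouse 1 and KI sham mouse 2, the hearts farthest from the median index, r was 0.84 for Sgcd, 0.72 for Utrn and 0.50 for Dmd. Within the 6 sham hearts r was 0.98, 0.91 and 0.91 for Sgcd, Utrn and Dmd, and within the 6 TAC hearts 0.83, 0.85 and 0.56. Dag1 had an r of 0.62 (permutation p = 0.0312) and a rho of 0.66 (permutation p = 0.0212), and its r was 0.71 without the same 2 hearts, 0.77 within the sham and 0.70 within the TAC hearts. For Dtna r was 0.44 (permutation p = 0.155) and rho 0.59 (permutation p = 0.0506), with an r of 0.08 without the 2 hearts, 0.94 within the sham and 0.33 within the TAC hearts. Sgcb had an r of 0.19 (permutation p = 0.553) and a rho of 0.12 (permutation p = 0.717). Its r was 0.42 without the 2 hearts, 0.46 within the sham and 0.46 within the TAC hearts. For Sgca r was -0.42 (permutation p = 0.177) and rho -0.41 (permutation p = 0.194). Its r was 0.08 without the same 2 hearts, -0.71 within the sham and -0.45 within the TAC hearts.

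**Figure D3:**
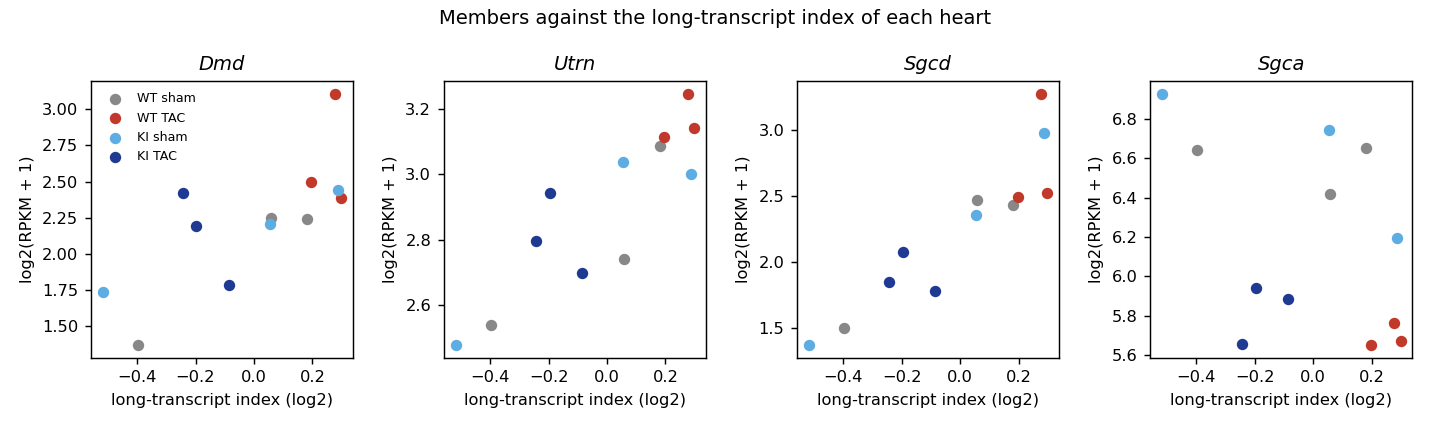
Log2(RPKM + 1) of Dmd, Utrn, Sgcd and Sgca against the long-transcript index, 1 point per heart coloured by group. Dmd, Utrn and Sgcd climb with the index (r 0.74, 0.88 and 0.92), while each TAC heart is below each sham heart for Sgca. The KI TAC hearts have index values (-0.24 to -0.09) that no sham heart has.

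With the index as a term of the 4-group fit, the KI TAC against WT TAC difference became -0.07 for Sgcd (SE 0.25, adjusted p = 0.890), -0.05 for Utrn (SE 0.17, adjusted p = 0.888) and -0.09 for Dmd (SE 0.28, adjusted p = 0.876). The index came from the same hearts and was 0.20 to 0.30 in WT TAC and -0.24 to -0.09 in KI TAC hearts. The fit therefore cannot tell a difference by genotype from one that goes with the index. With the 2 sham hearts left out instead, the difference of Sgcd was bound to stay at -0.86, since neither heart is in a TAC group. Its SE was 0.23 and it passed the threshold (adjusted p = 0.0373). The 2 hearts were picked by an index that Sgcd follows (r 0.98 within the sham hearts), so the smaller SE comes with that choice. This call is therefore no separate support for a difference, and it depends on which hearts are fitted. The WT change of Dmd was 0.40 to 0.92 over all alternatives, with an adjusted p of 0.109 to 0.394. That of Sgcd ranged from 0.07 to 0.81 (adjusted p 0.207 to 0.904) and that of Utrn from 0.16 to 0.53 (adjusted p 0.144 to 0.581). The fall of Sgca stood in the fit with the index at -0.72 in WT hearts (adjusted p = 0.0389) and -0.85 in KI hearts (adjusted p = 0.00423). It also stood without the 2 sham hearts, at -0.84 (adjusted p = 0.0342) and -0.64 (adjusted p = 0.0498).

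**Figure D4:**
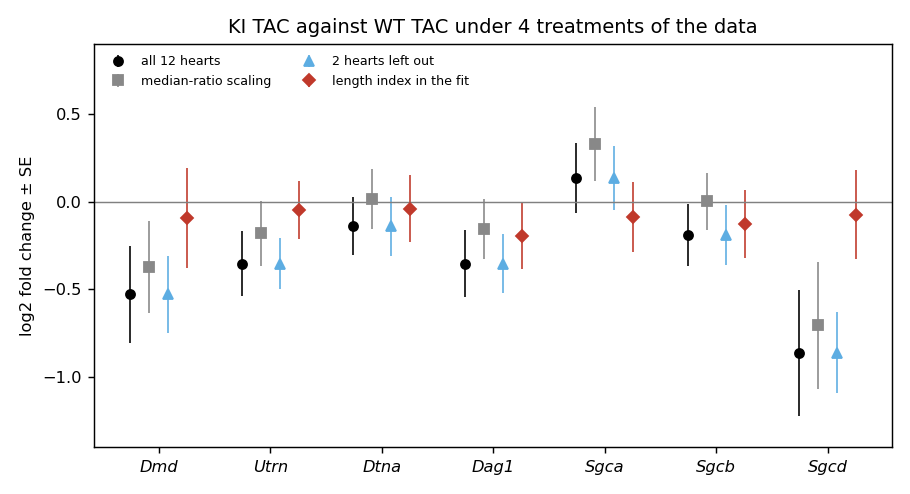
Log2 fold change ± SE of each member in KI TAC against WT TAC hearts, in the fit to all 12 hearts, after median-ratio scaling, without WT sham mouse 1 and KI sham mouse 2, and with the long-transcript index in the fit. Sgcd stands at -0.86 in the first fit, -0.71 after median-ratio scaling and -0.07 with the index.

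Around the members, 43 of 48 genes known to work with the complex passed the filter and were tested, in 5 groups. In WT TAC against WT sham hearts 5 rose and 2 fell, in KI TAC against KI sham hearts 3 rose and 8 fell, and in KI TAC against WT TAC hearts 0 were higher and 5 lower. The shares over all genes are those given above for the members. The median change of the 43 genes was 0.09, -0.14 and -0.32, beside 0.04, -0.10 and -0.12 over all genes tested. In sham hearts 0 of 43 differed between the genotypes (0 at an unadjusted p, 0 by limma-voom), and the interaction called 0 (5 at an unadjusted p, 0 by limma-voom).

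Cell type markers also moved between the TAC groups. In KI TAC against WT TAC hearts 2 of 7 cardiomyocyte markers were higher, Tnni3 (0.95, adjusted p = 0.0384) and Myl2 (0.86, adjusted p = 0.0447), with a median change of 0.65 over the 7. Of 4 smooth muscle markers Cnn1, a calponin, was lower (-0.98, adjusted p = 0.0261). The changes of all 5 fibroblast markers were below the median of all genes (-1.67 to -0.17, median -1.12), with 0 past the threshold, and their sum was 131 to 602 RPKM in WT TAC and 88.5 to 162 RPKM in KI TAC hearts. The sums of the leukocyte markers did not overlap between these groups, although 0 of 3 passed the test. Sox10 (-0.65, adjusted p = 0.0568), was at 1.87 to 3.14 RPKM in WT TAC and 1.09 to 1.32 RPKM in KI TAC hearts. The neutrophil markers S100a8 (0.68, adjusted p = 0.222) and S100a9 (0.92, adjusted p = 0.109) did not pass either. The part of these differences in the levels of the members and of the genes around them was not tested.

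Among 4 other subunits tested, Sntb1, the β1-syntrophin that binds dystrophin and dystrobrevin, rose in WT hearts. It was at 1.24, 1.18 and 1.25 RPKM in WT sham mice 1, 2 and 3 and at 2.41, 5.67 and 3.19 RPKM in WT TAC mice 7, 9 and 10, a log2 change of 1.04 (adjusted p = 0.0111). In KI hearts 0 of the 4 passed the test, the largest change being that of sarcospan (Sspn, -0.62, adjusted p = 0.0568), a small membrane protein that binds the sarcoglycans. Between the TAC groups the largest was Sntb1 (-0.49, adjusted p = 0.163).

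Among 9 ligands of dystroglycan and laminin chains, 1 fell in WT hearts and 4 in KI hearts, and 0 rose. Egflam, which encodes the dystroglycan ligand pikachurin, fell in both, by 0.70 in WT (adjusted p = 0.0112) and by 0.65 in KI hearts (adjusted p = 0.00874). In KI hearts the laminin chains Lama5 (-1.14, adjusted p = 0.00347) and Lamb2 (-0.79, adjusted p = 0.00612) and agrin (Agrn, -0.83, adjusted p = 0.00447) fell too. In WT hearts the changes were -0.35 for Lama5 (adjusted p = 0.339), -0.55 for Lamb2 (adjusted p = 0.0604) and -0.52 for Agrn (adjusted p = 0.0711). For all 3 genes each WT TAC heart was below each WT sham heart. The interaction passed the test for none of the 3 (adjusted p 0.284 to 0.652). Lama5 went from 61.7, 57.6 and 89.7 RPKM in KI sham mice to 38.8, 21.1 and 34.2 RPKM in KI TAC mice. Against WT TAC hearts, the KI TAC hearts had less Lama5 (-1.14, adjusted p = 0.0115) and less perlecan (Hspg2, -1.10, adjusted p = 0.0386). Lama2, the laminin chain of the muscle basement membrane, gave 0.00 in WT (adjusted p = 0.997) and 0.08 in KI hearts (adjusted p = 0.874).

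The enzymes that build the laminin-binding sugar chain of dystroglycan gave 1 decrease among 11 tested in WT hearts and 3 decreases in KI hearts, with 0 increases in either. Pomgnt2, which adds a sugar early in this chain, was at 7.80, 7.36 and 7.22 RPKM in WT sham mice and 4.23, 2.63 and 4.83 RPKM in WT TAC mice, and it went from 5.93, 8.05 and 7.98 RPKM in KI sham mice to 1.86, 2.23 and 2.50 RPKM in KI TAC mice. Each TAC heart was below each sham heart of its genotype, and the changes were -0.82 (adjusted p = 0.0131) and -1.37 (adjusted p = 0.000275). In KI hearts the kinase Pomk (-0.63, adjusted p = 0.0197) and the mannosyltransferase Pomt1 (-0.53, adjusted p = 0.0155) fell as well, beside -0.08 (adjusted p = 0.815) and -0.17 (adjusted p = 0.451) in WT hearts. Against WT TAC hearts, KI TAC hearts had less Pomk (-0.62, adjusted p = 0.0401).

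Of 9 signaling and cytoskeletal partners, desmin (Des), the intermediate filament of muscle, rose in WT (0.75, adjusted p = 0.0492) and in KI hearts (0.99, adjusted p = 0.00763). Caveolin-3 (Cav3), the caveolin of muscle, rose in KI hearts (1.54, adjusted p = 0.00371), from 27.7, 39.8 and 25.9 RPKM in sham to 58.2, 77.0 and 165 RPKM in TAC mice. In WT hearts the change of Cav3 was 0.78 (adjusted p = 0.127), with each TAC heart (47.6 to 58.4 RPKM) above each sham heart (26.1 to 37.7 RPKM). Syncoilin (Sync), which joins dystrobrevin to desmin, fell in KI hearts (-0.94, adjusted p = 0.0158; WT -0.23, adjusted p = 0.586), and synemin (Synm), another filament protein that binds dystrophin, differed between the TAC groups, lower in KI (-0.71, adjusted p = 0.0367).

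Of 10 membrane repair genes, Anxa2, an annexin recruited to torn membrane, rose in WT (1.24, adjusted p = 0.00234) and in KI hearts (1.02, adjusted p = 0.00324). Dysferlin (Dysf, 0.90, adjusted p = 0.0149) and its relative myoferlin (Myof, 0.89, adjusted p = 0.0104) rose in WT hearts, beside 0.19 (adjusted p = 0.546) and 0.20 (adjusted p = 0.493) in KI hearts, and Myof stood lower in KI when the TAC groups were compared (-0.65, adjusted p = 0.0466). The 5 differences between the TAC groups no longer passed the test with the long-transcript index in the fit (0 of 43) or when only these 2 groups were fitted (0), which leaves each fold change as it was and alters only its error. Because the index separates the 2 TAC groups, the first of these fits cannot tell genotype and index apart. Leaving out WT TAC mouse 7 or KI TAC mouse 6 gave 0 as well, leaving out WT TAC mouse 10 or KI TAC mouse 5 gave 2, and leaving out WT TAC mouse 9 or KI TAC mouse 7 gave 9. The count over all genes moved the same way, from 1242 to 133 with the index and to 216 with the 2 groups alone. In WT TAC against WT sham hearts 4 of 43 were called without WT sham mouse 2 or without WT TAC mouse 7, in place of 7.

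**Figure D5:**
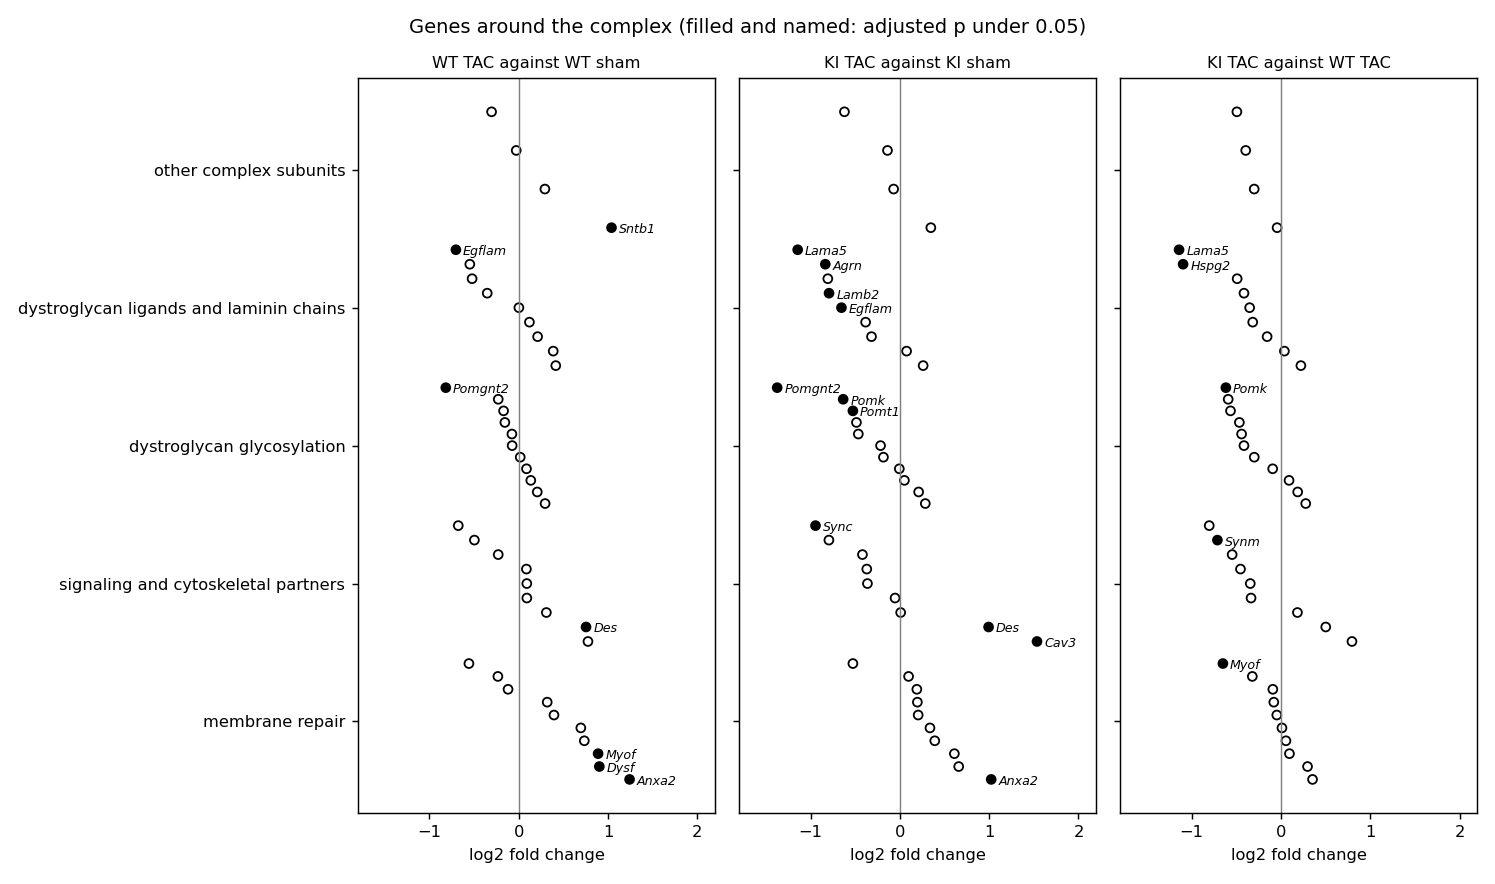
Log2 fold change of 43 genes that work with the complex, in 5 groups and 3 comparisons, 1 point per gene, filled and named where the adjusted p over all genes was under 0.05. In WT hearts 5 points are filled to the right and 2 to the left, in KI hearts 3 and 8, and between the TAC groups 0 and 5.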

How the data were processed

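Whole-heart poly(A) RNA of 12 mice had been sequenced as strand-specific single reads. Per the study's methods, the authors used Trimmomatic 0.39, HISAT2 2.2.1 on GRCm38 and htseq-count from HTSeq 0.6.1, and tested with edgeR 3.18.1. The deposited table holds RPKM values, a unit read from the values because no source used here names it or the filter on genes. GENCODE M21 gave lengths for 13546 of 13552 genes, from which depth and reads were recovered.

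From these, log2(RPKM + 1) of the 11240 genes that reached 1 RPKM in 3 or more mice was modelled with limma 3.58.1 (lmFit, then eBayes with a trend; R 4.3.3), with 4 groups taken from the labels and Benjamini-Hochberg adjustment over all genes tested (threshold 0.05). Fold changes are on that scale and understate those of low genes. The fit was tested on simulated data. Permutation tests used scipy 1.17.1. The members, the gene lists (written from general knowledge) and the tests were chosen with earlier results of these data known. Named besides the members are at most 4 called genes per list and comparison, the largest change where 0 passed, marker genes, paralogs and the 3 most correlated genes per member, predicted genes passed over. Alternatives were a pseudocount of 0.1, other filters, scalings and thresholds, limma-voom, separate fits, leaving out each mouse and a replicate block. The long-transcript index and the fit without 2 hearts were added after the data were seen. Columns of no sample numbered 0. Some genes of these lists are not reported here.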

Additional observations from a re-analysis of the deposited data

How the results depend on the processing

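In WT TAC against WT sham and in KI TAC against KI sham hearts the count of members called, 1 and 1, was 0 and 0 under a required log2 change of 1, and ranged from 0 to 1 in both when each mouse was left out. Under every other alternative run, Sgca fell in both. Between the TAC groups the count of 0 became 1, Sgcd, without WT sham mouse 1 and KI sham mouse 2. Among the 43 associated genes the count in WT hearts went from 7 to 2 with a log2 change of 1, and ranged from 4 to 8 with each mouse left out. In KI hearts it went from 11 to 18 at an adjusted p of 0.10 and to 4 with a log2 change of 1. Between the TAC groups it went from 5 to 12 at an adjusted p of 0.10, to 2 each with a log2 change of 1 and quantile normalization, to 3 after median-ratio scaling, and to 0 in a fit of these groups alone and with the long-transcript index, and it ranged from 0 to 9 with each mouse left out.

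Changes that were not called turned sign as follows. In KI TAC against KI sham hearts Dmd was -0.19 without the 2 sham hearts, and Utrn 0.037 after quantile normalization, 0.12 after median-ratio scaling and 0.057 with the index. In WT TAC against WT sham hearts Dag1 was -0.017 after median-ratio scaling and -0.087 with the index. Between the TAC groups Sgca was -0.087 with the index, Sgcb 0.0020 after median-ratio scaling, and Dtna 0.011 and 0.016 after quantile and median-ratio scaling. Between the sham groups Dag1 was 0.054 and Sgca -0.066 without the 2 sham hearts. The interaction was -0.14 for Sgca with the index, and 0.056 and 0.044 for Dtna after quantile and median-ratio scaling.

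With each mouse left out, the KI changes ranged from -0.19 to 0.18 for Dmd, -0.21 to 0.073 for Utrn and -0.77 to 0.039 for Sgcd, and the WT change of Dag1 from -0.020 to 0.071. The sham differences ranged from -0.11 to 0.37 for Dmd, -0.075 to 0.23 for Utrn, -0.20 to 0.063 for Dag1, -0.10 to 0.26 for Sgca, -0.0060 to 0.12 for Sgcb, -0.27 to 0.53 for Sgcd and -0.075 to 0.030 for Dtna. The interaction of Sgca ranged from -0.13 to 0.23. The log2 ratio of Utrn to Dmd ranged from -0.20 to 0.17 in KI TAC against KI sham hearts and from -0.44 to 0.068 between the sham groups. The causes of these shifts were not tested.

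The sham groups share the mouse numbers 1, 2 and 3 and the TAC groups only the number 7, and these numbers mark different animals. The deviations of same-numbered sham mice had r of -0.22, -0.30 and 0.44. These values cannot show whether such mice were handled together, and the main fit did not treat them as pairs. With a replicate block in the sham comparison, 0 of 7 members and 0 of 43 associated genes differed, as without it. In each comparison of 2 groups, the 95% intervals of Sgcd, the member with the fewest reads in a heart (396), were wider than a log2 unit. Those of Dmd, with 1212 to 4739 reads in a heart, were too. The parts of depth and of the number of mice in this width were not tested.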
